A study of Schizosaccharomyces pombe with 14 samples.

Results

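The genes of the mitochondrial genome of the fission yeast Schizosaccharomyces pombe were taken as all rows of the gene count tables whose identifier begins with SPMIT. This rule gave 36 of the 7049 genes in the tables, 25 of which encode tRNAs and 11 of which encode proteins. All 36 lie on the + strand of the mitochondrial chromosome (MT). Gene positions are given in the build ASM294v2. Printed sequences and intron borders have positions of the build ASM294v3, which differ by a few bases at most genes. The 2 mitochondrial rRNA genes, rnl and rns, carry other identifiers and were not members, and their counts are given only where they stand beside a member's result.

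The RNA came from 14 libraries of 3 experiments built around Pac1, the RNase III of fission yeast, which cleaves double-stranded stretches of RNA in the nucleus, and around the nuclear exonucleases Dhp1, which degrades RNA from the 5′ end, and Dis3, which degrades RNA from the 3′ end as part of the exosome. In the pac1-ts experiment, 2 clones made by genome editing (FBY2604 and FBY2605, h+ ade6M210 leu1-32 ura4-D18 his3-D1 with the allele pac1-G1024A) and their WT parent (FBY13, the same markers without that allele) were grown in Edinburgh minimal medium at 30 °C or shifted to 37 °C for 2 h, which gave 1 library for each clone and for WT at each temperature. In the anchor-away experiment, Pac1-AA cells (FBY2300) and CTL cells (FBY2066) both carried torSE, a fkh1 disruption and an anchor of the ribosomal protein Rpl13 fused to FKBP12 under the nmt1 promoter, and both received 2.5 µg/ml rapamycin for 2 h. Only Pac1-AA cells also carried Pac1-FRB-GFP, which rapamycin moves out of the nucleus, and each strain had 2 libraries. In the exonuclease experiment, single libraries were made from strains labelled as Pnmt81-dhp1 Pnmt81-dis3 (FBY1818), Pnmt81-dis3 (FBY721) and Pnmt81-dhp1 (FBY1792), whose promoters are shut off by thiamine, and from WT (FBY106), all in 60 µM thiamine for 12 to 15 h. All cells of the anchor-away and exonuclease experiments were grown at 30 °C. Different kits were used (Zymo-Seq RiboFree for the pac1-ts experiment, TruSeq Stranded with RiboZero for the other experiments), so groups were tested only within an experiment.

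The mitochondrial genome of fission yeast is a small circle that encodes core subunits of the respiratory chain and of the ATP synthase, 1 ribosomal protein, the mitochondrial rRNAs and a set of tRNAs. It is read by the phage-type RNA polymerase Rpo41 with its partner Mtf1 into long precursors, from which the tRNAs are cut out by RNase P at the 5′ end and RNase Z at the 3′ end, and these cuts also free the mRNAs between them. Nearly all other mitochondrial proteins are made from nuclear genes, so a respiratory complex needs products of both genomes.

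The depth was 15997568 to 17743083 counted fragments a library in the pac1-ts experiment, 19877576 to 53258725 in the anchor-away experiment and 6836270 to 9470347 in the exonuclease experiment. The members held 397729 to 822019 of these counts in the pac1-ts libraries, 601043 to 1674044 in the anchor-away libraries and only 603 to 2546 in the exonuclease libraries. The pac1 transcript is kept in every strain and checks no label. Its level, as counts scaled to a library total of 1000000 (CPM), was 94.4 and 85.1 in pac1-ts at 37 °C, against 79.9 in WT at 37 °C. At 30 °C pac1-ts had 109.5 and 113 CPM, against 216 in WT, and Pac1-AA had 162 and 160.5 CPM, against 93.7 and 90.6 in CTL. In the exonuclease experiment the targeted transcripts went against some labels. The dhp1 transcript had 333 CPM in the library labelled Pnmt81-dhp1 Pnmt81-dis3, 370.3 in the library labelled Pnmt81-dis3 and 142 in the library labelled Pnmt81-dhp1, against 180.1 in WT. The dis3 transcript had 222 CPM in the library labelled Pnmt81-dhp1 Pnmt81-dis3, 153 in the library labelled Pnmt81-dis3 and 142 in the library labelled Pnmt81-dhp1, against 202 in WT. These libraries are therefore named by their labels throughout, and where several are listed they are called dhp1-dis3-labelled, dis3-labelled and dhp1-labelled.

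In the pac1-ts experiment the members took the largest share of counts in pac1-ts at 37 °C. Their share was 4.72% and 4.88% in the pac1-ts libraries at 37 °C (4.80% ± 0.12, SD, n = 2), against 3.29% in WT at 37 °C. At 30 °C it was 2.89% and 2.98% in pac1-ts (2.93% ± 0.07, SD, n = 2), against 2.24% in WT. Both pac1-ts libraries lay above the WT library at each temperature, and every library at 37 °C lay above the libraries at 30 °C. With 1 WT library a temperature there was no test of the share. The mitochondrial rRNAs took 15.5% and 16.8% of counts in pac1-ts at 37 °C, against 11.1% in WT at 37 °C. At 30 °C they took 14.4% in both pac1-ts libraries, against 11.0% in WT. Their part in the result was not tested. In these bulk libraries, more mitochondria or genome copies per cell and more RNA per genome copy cannot be told apart, and a change of share cannot be told apart from a change in the rest of the RNA.

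In the anchor-away experiment the members' share was 2.88% and 3.14% in Pac1-AA (3.01% ± 0.18, SD, n = 2), against 3.02% and 2.70% in CTL (2.86% ± 0.23, SD, n = 2), and the groups overlapped. In the exonuclease experiment it was 0.0124% in the library labelled Pnmt81-dhp1 Pnmt81-dis3 (95% Clopper-Pearson interval 0.0117 to 0.0132), 0.0167% in the library labelled Pnmt81-dis3 (0.0159 to 0.0175) and 0.0346% in the library labelled Pnmt81-dhp1 (0.0333 to 0.0360), against 0.00882% in WT (0.00813 to 0.00955). The 4 intervals did not overlap, but they cover counting error only, and each group had 1 library.

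**Figure D1:**
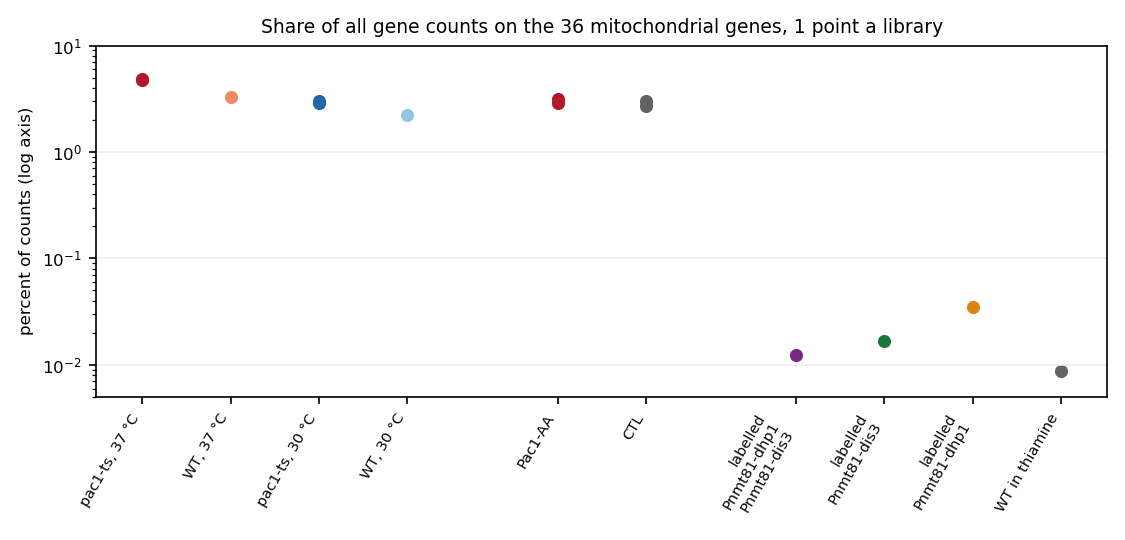
Percent of all gene counts that fell on the 36 mitochondrial genome genes, on a log axis, with 1 point a library and the 3 experiments from left to right. The pac1-ts libraries at 37 °C sit highest at 4.72% and 4.88%, the 4 anchor-away libraries lie between 2.70% and 3.14%, and the 4 exonuclease libraries lie at or below 0.0346%.

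Levels of different genes were compared per length, as CPM divided by the exon length in kilobases (FPKM), computed from the counts and the gene lengths in the tables. In the pac1-ts experiment the member with the highest level was atp9 (SPMIT.10, MT 17806 to 18030), the proteolipid ring subunit of the ATP synthase, with a median of 14294 FPKM over the 6 libraries and a range of 10480.2 to 17686. It was followed by the cytochrome c oxidase subunit genes cox3 (SPMIT.04, MT 8947 to 9765) at a median of 7449 FPKM, cox2 (SPMIT.11, MT 18561 to 19307) at 5852 FPKM and cox1 (SPMIT.01, 3 exons in MT 4886 to 8790) at 2977 FPKM. The lowest levels were those of the tRNA genes trnH(gug) at a median of 199.6 FPKM and trnC(gca) at 138 FPKM. The order of the 4 highest genes was almost the same in the anchor-away libraries, where atp9 had a median of 15606 FPKM, cox2 7264, cox3 4754 and cox1 4067. Over the pac1-ts libraries the ranges of neighbouring genes in this order overlapped from cox3 downwards.

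Several short genes stood at different levels in the 2 experiments. In the anchor-away libraries atp8 (SPMIT.09, MT 16914 to 17060), which encodes a short peripheral subunit of the ATP synthase, had a median of 12.4 FPKM, while in the pac1-ts libraries it had 2437 FPKM. Among tRNA genes trnN(guu) had a median of 1.68 FPKM in the anchor-away libraries and 366 FPKM in the pac1-ts libraries. Together the tRNA genes held 0.824% to 0.874% of the members' counts in the anchor-away libraries and 6.04% to 8.17% in the pac1-ts libraries. Kit, strain and depth all differ between these experiments and cannot be told apart.

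**Figure D2:**
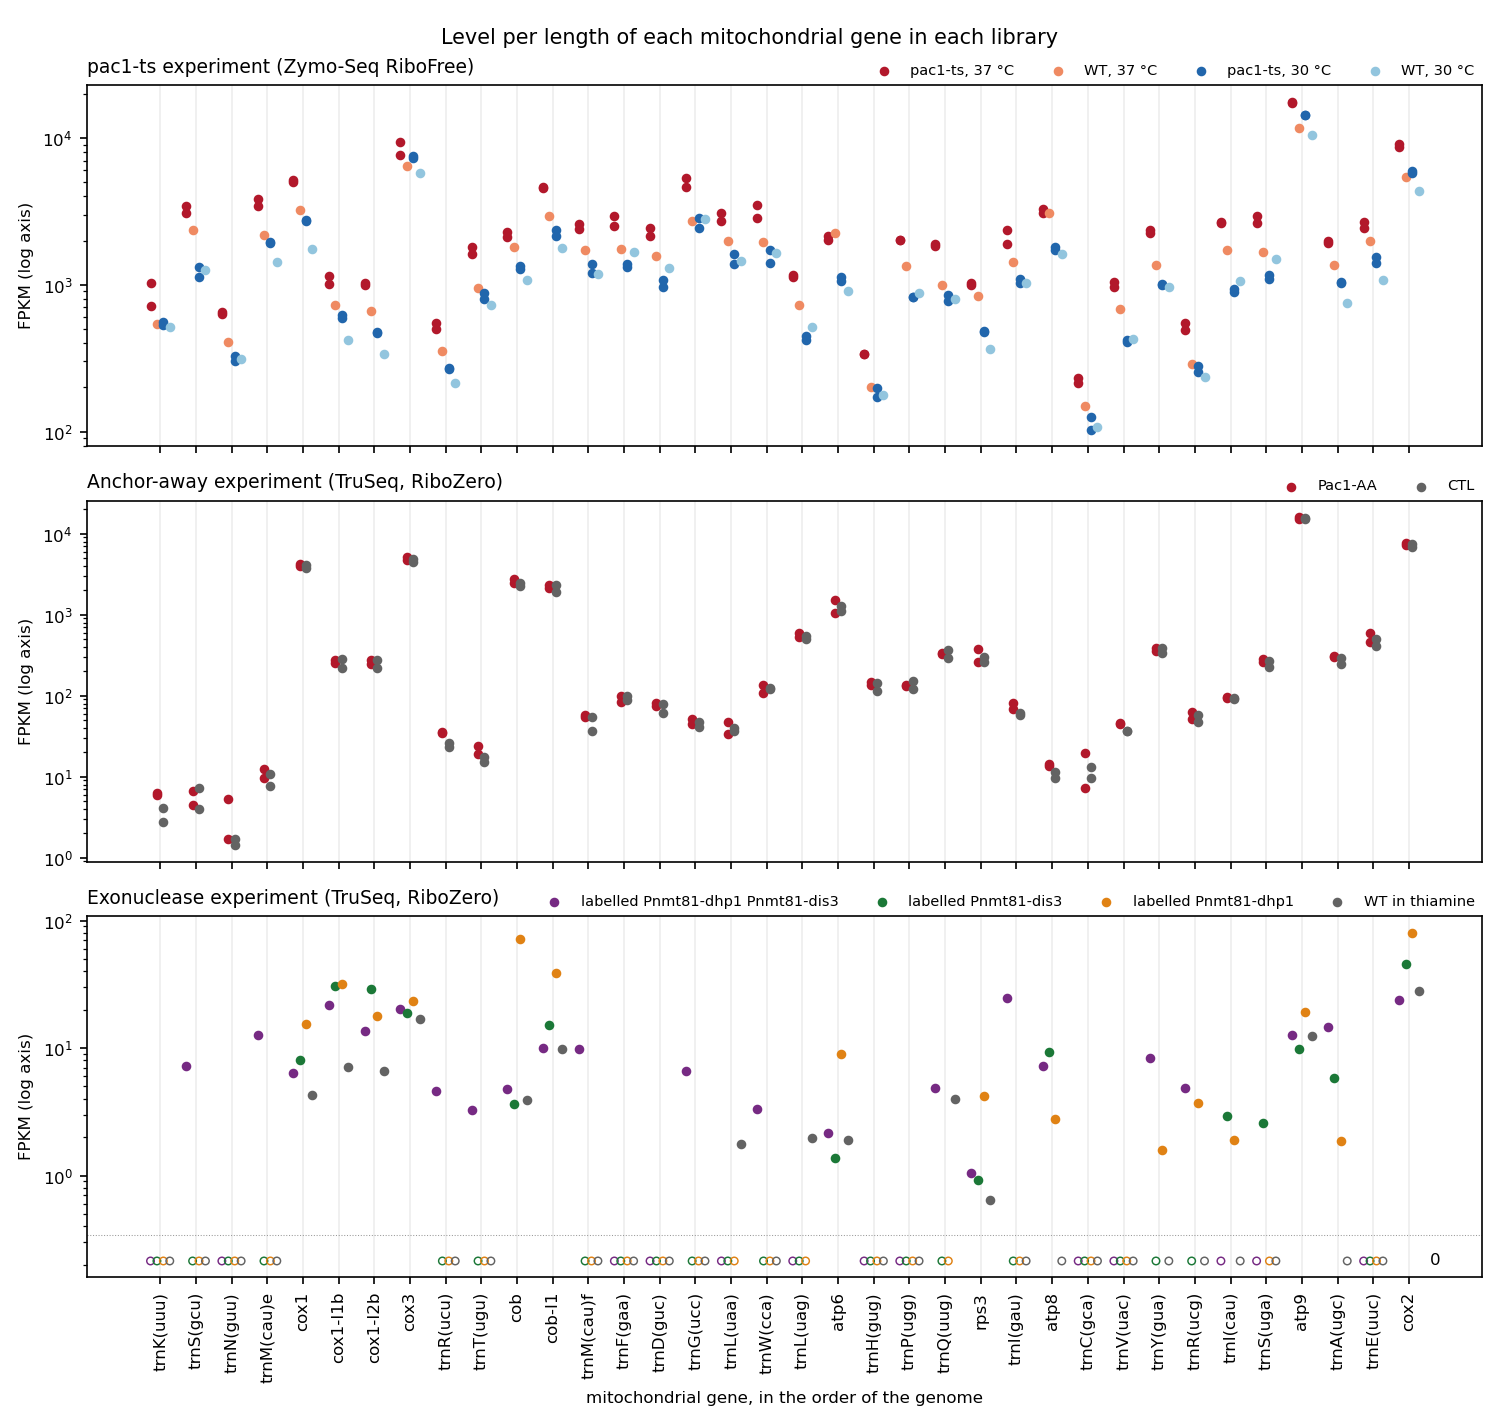
Level per length (FPKM, log axis) of each of the 36 mitochondrial genome genes in the order of the genome, 1 point a library, in the pac1-ts experiment (top), the anchor-away experiment (middle) and the exonuclease experiment (bottom, with libraries at 0 counts as open circles below the dotted line). In the top panel the pac1-ts libraries at 37 °C are the highest for every gene but atp6, and atp9 has the highest median in the top and middle panels.

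The members were tested with edgeR's quasi-likelihood test on the counts, in 1 model of strain, temperature and their interaction for the 6 pac1-ts libraries. Values per library are CPM after scaling by edgeR's trimmed mean of M values (TMM-scaled CPM). A gene passed where its p-value, adjusted by the Benjamini-Hochberg method over all 6728 genes tested, was below 0.01. All 36 members were tested. WT had 1 library at each temperature, so its spread was assumed to be that of the 2 pac1-ts clones. The pac1-ts libraries of a temperature came from the 2 clones, so their spread includes that between clones. The labels do not say that the 2 libraries of CTL or of Pac1-AA came from separate cultures, and the p-values of that experiment then measure the spread between libraries, which may be technical.

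The shift of pac1-ts cells to 37 °C raised most of the members. Of the 36 members, 32 were higher at 37 °C than at 30 °C in pac1-ts and 0 were lower, beside 21.4% of all genes tested that were higher and 25.4% that were lower. The median log2 fold change was 0.69 over the members, beside 0.02 over all genes. The 32 were 24 of the 25 tRNA genes and 8 of the 11 protein-coding genes. The members that did not pass were cox2, cox3, atp9 and trnK(uuu). The 2 mitochondrial rRNA genes, which are not members, did not pass in either strain. Their log2 fold changes were −0.15 and −0.09 in pac1-ts and −0.57 and −0.26 in WT. In WT the same shift gave 4 members that were higher and 1 that was lower, beside 12.8% of all genes that were higher and 18.1% that were lower, with a member median of 0.08, beside −0.02 over all genes. The WT count depended on the scaling. Scaling by library totals alone, under which the median of all genes was 0.30 in pac1-ts and 0.40 in WT on the log2 scale, gave 34 higher and 0 lower in pac1-ts and 19 higher and 0 lower in WT, while the members' median stayed 0.67 and 0.10 above that of all genes. DESeq2, and its size factors in edgeR, each gave 7 higher and 0 lower in WT. Each clone was sampled at both temperatures, and a replicate block for the clone gave a WT count of 11 higher and 2 lower. Leaving out a pac1-ts library changes the estimate of the spread and can also move the scaling. Without FBY2604 or FBY2605 at 30 °C the members' WT median was 0.08 each time, beside −0.02 over all genes. Without FBY2604 or FBY2605 at 37 °C it was 0.12 each time, beside 0.02 over all genes.

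Of the cytochrome c oxidase genes, cox1, which encodes the catalytic subunit that holds the haem and copper site, rose in pac1-ts. It had 7609 and 7369 TMM-scaled CPM in pac1-ts at 37 °C and 4468 in WT at 37 °C, and 4947 and 4766 in pac1-ts at 30 °C and 3237 in WT at 30 °C. The groups did not overlap, and both WT libraries were below the pac1-ts libraries at either temperature. The shift to 37 °C changed cox1 by a log2 fold change of 0.62 ± 0.12 (SE, adjusted p = 0.00103, edgeR) in pac1-ts and by 0.46 ± 0.17 (adjusted p = 0.049) in WT, and without the FBY2604 library at 30 °C the pac1-ts value was 0.65 with an adjusted p of 0.0374. The cox2 gene, for the subunit that takes electrons from cytochrome c, had 6123 and 5839 CPM in pac1-ts at 37 °C and 3472 in WT at 37 °C, and 4895 and 4770.2 in pac1-ts at 30 °C and 3729 in WT at 30 °C. Its 2 WT libraries were the lowest of the 6, and its shift did not pass in pac1-ts (0.31 ± 0.12, adjusted p = 0.0441) or in WT (−0.10 ± 0.17, adjusted p = 0.657). The third subunit gene, cox3, had 5651 and 6976 CPM in pac1-ts at 37 °C and 4542 in WT at 37 °C, and 6807 and 6679.6 in pac1-ts at 30 °C and 5403 in WT at 30 °C. The pac1-ts libraries at 37 °C lay on both sides of those at 30 °C, and cox3 did not pass in either strain.

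The gene cob (SPMIT.05, 2 exons in MT 10173 to 13862) encodes cytochrome b, the membrane core of the bc1 complex. It had 2429 and 2239 CPM in pac1-ts at 37 °C and 1808 in WT at 37 °C, and 1782 and 1592 in pac1-ts at 30 °C and 1442 in WT at 30 °C. The shift raised it by 0.47 ± 0.10 on the log2 scale in pac1-ts (adjusted p = 0.00202, edgeR), a call that was lost without the FBY2605 library at 30 °C (adjusted p = 0.0202). In WT its value was 0.33 ± 0.14 (adjusted p = 0.0877).

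Genes of the ATP synthase did not move together. The gene atp6 (SPMIT.07, MT 14756 to 15529), for the subunit of the proton channel, had 1517 and 1417 CPM in pac1-ts at 37 °C and 1494 in WT at 37 °C, and 998 and 884 in pac1-ts at 30 °C and 811 in WT at 30 °C. It rose with the shift in both strains, by 0.64 ± 0.09 (SE) on the log2 scale in pac1-ts (adjusted p = 0.000127, edgeR) and by 0.88 ± 0.13 in WT (adjusted p = 0.000321), and the WT library at 37 °C lay between the 2 pac1-ts libraries. The gene atp8 had 413 and 437 CPM in pac1-ts at 37 °C and 390.0 in WT at 37 °C, and 300.4 and 272 in pac1-ts at 30 °C and 274 in WT at 30 °C. It also rose in both strains, by 0.57 ± 0.08 in pac1-ts (adjusted p = 9.69e-05) and by 0.51 ± 0.11 in WT (adjusted p = 0.00388). In contrast atp9 had 3515 and 3606 CPM in pac1-ts at 37 °C and 2269 in WT at 37 °C, and 3649 and 3465 in pac1-ts at 30 °C and 2717 in WT at 30 °C. Its pac1-ts libraries overlapped between the temperatures, and its shift did not pass in pac1-ts (0.00 ± 0.11) or in WT (−0.26 ± 0.15).

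The gene rps3 (SPMIT.08, MT 15954 to 16637) encodes a protein of the small subunit of the mitochondrial ribosome. It had 619 and 636 CPM in pac1-ts at 37 °C and 495 in WT at 37 °C, and 374 and 350.4 in pac1-ts at 30 °C and 288 in WT at 30 °C. The pac1-ts libraries did not overlap between the temperatures, and WT had 1 library at each. The shift raised rps3 by 0.79 ± 0.08 (SE) on the log2 scale in pac1-ts (adjusted p = 5.41e-06, edgeR) and by 0.78 ± 0.11 in WT (adjusted p = 0.000194). The WT calls of rps3, atp6 and atp8 were also made with library totals, with DESeq2 and with the replicate block.

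The last 3 protein-coding members are open reading frames inside introns. Of these, cox1-I1b and cox1-I2b lie in the group I introns of cox1 and encode proteins of the homing endonuclease type, which can act as maturases in splicing, and cob-I1 (SPMIT.06, MT 10857 to 13280), lies in the group II intron of cob and encodes a reverse transcriptase-like protein. The open reading frame cox1-I2b (SPMIT.03, MT 6966 to 7718) had 678 and 706 CPM in pac1-ts at 37 °C and 428 in WT at 37 °C, and 402 and 384 in pac1-ts at 30 °C and 291 in WT at 30 °C. It rose with the shift by 0.81 ± 0.08 (SE) on the log2 scale in pac1-ts (adjusted p = 4.14e-06, edgeR) and by 0.56 ± 0.11 in WT (adjusted p = 0.0016). The open reading frame cox1-I1b (SPMIT.02, MT 5291 to 6445) had 1057 and 1191 CPM in pac1-ts at 37 °C and 728 in WT at 37 °C, and 782 and 769 in pac1-ts at 30 °C and 563 in WT at 30 °C. It rose by 0.54 ± 0.09 in pac1-ts (adjusted p = 0.00027), while its WT value of 0.37 ± 0.12 did not pass (adjusted p = 0.0297). For cob-I1 the values were 9977 and 10219.9 CPM in pac1-ts at 37 °C and 6159 in WT at 37 °C, and 5871 and 6127 in pac1-ts at 30 °C and 4994 in WT at 30 °C. It rose by 0.75 ± 0.13 in pac1-ts (adjusted p = 0.000522, and 0.0458 without the FBY2604 library at 30 °C) and had 0.30 ± 0.19 in WT (adjusted p = 0.224).

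Within the cob gene the intron reading frame had more counts per base than the exons in every pac1-ts library. The ratio of cob-I1 to cob per base was 1.97 and 2.19 in pac1-ts at 37 °C, against 1.64 in WT at 37 °C, and 1.58 and 1.85 in pac1-ts at 30 °C, against 1.66 in WT at 30 °C. The pac1-ts libraries at 37 °C were the highest of the 6. In the anchor-away libraries the ratio was 0.857 ± 0.019 in Pac1-AA and 0.888 ± 0.064 in CTL (SD, n = 2 each). The 2 cox1 introns had lower ratios to cox1. For cox1-I1b the ratio was 0.210 ± 0.022 in pac1-ts at 37 °C (SD, n = 2), against 0.228 in WT, and 0.223 ± 0.003 in pac1-ts at 30 °C, against 0.243 in WT. For cox1-I2b it was 0.198 ± 0.010 in pac1-ts at 37 °C, against 0.205 in WT, and 0.174 ± 0.001 in pac1-ts at 30 °C, against 0.193 in WT. Counts cannot tell an excised intron from an unspliced precursor, and fragments that span an exon and an intron reading frame were not counted. The borders of the cob intron are printed below from the RefSeq genome, 30 bases on each side, since cob and cob-I1 part company again in the exonuclease libraries. Capitals mark the intron, which runs over 2526 bases on the + strand of MT in the build ASM294v3, with the 5′ border at positions 10829 to 10888 and the 3′ border at positions 13355 to 13414.
cob 5′ border: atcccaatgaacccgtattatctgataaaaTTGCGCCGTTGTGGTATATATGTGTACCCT
cob 3′ border: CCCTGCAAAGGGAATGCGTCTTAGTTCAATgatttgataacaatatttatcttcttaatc

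**Figure D3:**
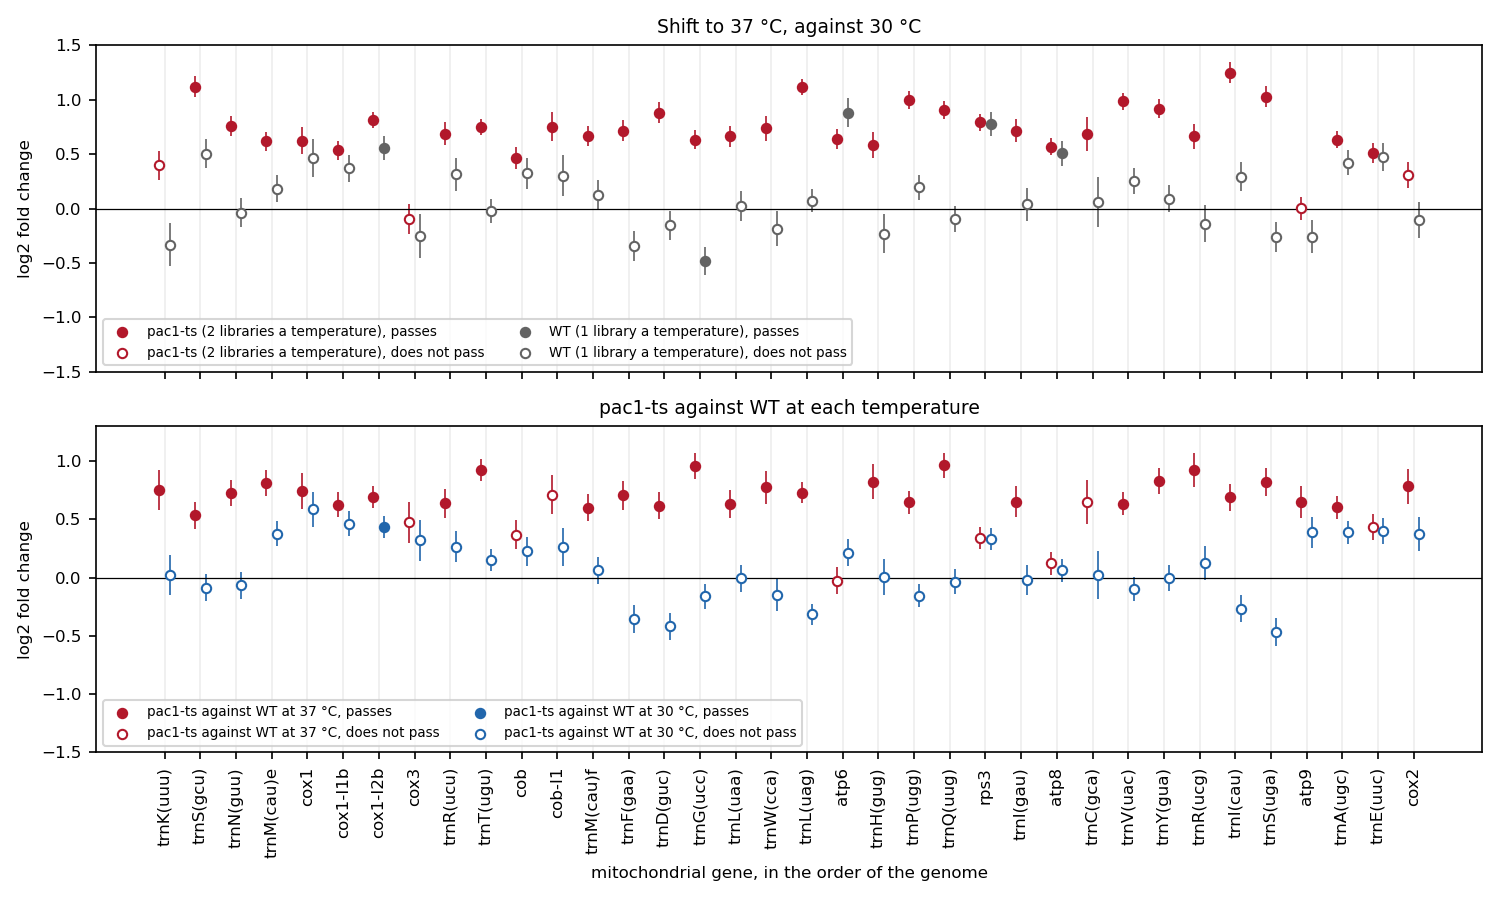
Log2 fold change of each mitochondrial genome gene, in the order of the genome, with bars for the standard error from edgeR and filled points for an adjusted p below 0.01. The top panel sets 37 °C against 30 °C within pac1-ts (red) and within WT (grey), and the bottom panel sets pac1-ts against WT at 37 °C (red) and at 30 °C (blue), where 28 members pass at 37 °C and 1 at 30 °C.

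At 37 °C most members were higher in pac1-ts than in WT. Of the 36 members, 28 were higher and 0 were lower, beside 5.8% of all genes that were higher and 6.29% that were lower, and the median log2 fold change was 0.67, beside 0.00 over all genes. The 28 were 23 of the 25 tRNA genes and 5 of the 11 protein-coding genes, none of them 2-fold or more. Of these 5, cox2 was higher by 0.78 ± 0.15 on the log2 scale (adjusted p = 0.00387), cox1 by 0.75 ± 0.15 (adjusted p = 0.00579), cox1-I2b by 0.69 ± 0.10 (adjusted p = 0.000527), atp9 by 0.65 ± 0.13 (adjusted p = 0.00559) and cox1-I1b by 0.63 ± 0.11 (adjusted p = 0.00221, edgeR). Without the FBY2604 library at 30 °C, which changes only the estimate of the spread, the adjusted p was 0.0132 for cox2, 0.0286 for cox1 and 0.0141 for atp9. Those that did not pass were cob-I1 (0.71 ± 0.17, adjusted p = 0.0109), cox3 (0.48 ± 0.18), cob (0.37 ± 0.13), rps3 (0.34 ± 0.09, adjusted p = 0.023), atp8 (0.12 ± 0.10) and atp6 (−0.03 ± 0.11, adjusted p = 0.885). The mitochondrial rRNAs, at 0.56 and 0.68, did not pass either. Of the tRNA genes the largest differences were those of trnQ(uug), trnG(ucc) and trnR(ucg). The first had 125 and 121 CPM in pac1-ts, against 63.0 in WT at 37 °C (0.97 ± 0.11, adjusted p = 0.000112). The last of them, trnR(ucg), had 32.4 and 36.3 CPM in pac1-ts, against 18.1 in WT at 37 °C (0.92 ± 0.14, adjusted p = 0.00106).

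At 30 °C 1 member passed the test between the 2 strains. In simulated data of this comparison the test called 16 of 73 genes changed by 0.5 on the log2 scale, so smaller differences can be missed. The open reading frame cox1-I2b was higher in pac1-ts by 0.44 ± 0.09 on the log2 scale (adjusted p = 0.00848, edgeR) and 0 members were lower, beside 3.63% of all genes that were higher and 6.3% that were lower. All 11 protein-coding members had a fold change above 0, with a median of 0.33, and the tRNA genes had a median of −0.02. In the fit with the replicate block, 9 members were higher (cox1, cox1-I1b, cox1-I2b, cox2, atp9, rps3, trnA(ugc), trnE(uuc) and trnM(cau)e) and 5 were lower, all of them tRNA genes. The count also moved with single libraries, to 2 without the FBY2604 library at 30 °C, where cox1-I2b did not pass (adjusted p = 0.0193), and to 10 and 11 without the FBY2604 or the FBY2605 library at 37 °C.

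The members whose shift passed the test of a difference between the strains were 9 tRNA genes. All 25 tRNA genes together had 3294 and 3615 TMM-scaled CPM in pac1-ts at 37 °C and 2099.6 in WT at 37 °C, and 1981 and 2018 in pac1-ts at 30 °C and 2076 in WT at 30 °C. The 2 pac1-ts libraries at 37 °C stood apart, and the other 4 libraries lay close together. Counts on a tRNA gene cannot tell a mature tRNA from an uncut precursor, and fragments that overlap neighbouring genes were not counted. The interaction term of the model compares the shift of pac1-ts with that of WT, and in it 9 of the 25 tRNA genes and 0 of the 11 protein-coding genes passed, the 9 with a larger shift in pac1-ts and 0 with a smaller one, beside 0.907% and 0.357% of all genes. At an unadjusted p below 0.05 there were 22 tRNA genes and 0 protein-coding genes, and DESeq2 called 10 tRNA genes and 0 protein-coding genes. The median interaction was 0.79 on the log2 scale over the tRNA genes and 0.16 over the protein-coding genes, and a direct test between these classes was not run. In the fit with the replicate block 20 tRNA genes and 0 protein-coding genes passed. The count fell to 5 with DESeq2's size factors in edgeR, 3 with library totals and 2 when only genes with a mean of at least 50 counts were tested, and it was 16, 20, 14 and 13 when the libraries FBY2604 at 30 °C, FBY2604 at 37 °C, FBY2605 at 30 °C and FBY2605 at 37 °C were left out in turn, each time tRNA genes alone.

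Of the 25, trnS(uga) had the largest interaction. It had 196 and 219 CPM in pac1-ts at 37 °C and 117 in WT at 37 °C, and 108 and 95.8 in pac1-ts at 30 °C and 141 in WT at 30 °C. It was thus higher at 37 °C in pac1-ts (1.03 ± 0.10 on the log2 scale, SE, adjusted p = 4.84e-06, edgeR), while its WT value was −0.26 (adjusted p = 0.153), and the interaction was 1.29 ± 0.17 (adjusted p = 0.00254). The gene trnG(ucc), which had the highest mean count of the tRNA genes in this experiment, had 305 and 346 CPM in pac1-ts at 37 °C and 168 in WT at 37 °C, and 199 and 219.6 in pac1-ts at 30 °C and 234 in WT at 30 °C. It rose in pac1-ts by 0.63 (adjusted p = 8.71e-05) and fell in WT by 0.48 (adjusted p = 0.00903), with an interaction of 1.12 ± 0.15 (adjusted p = 0.00302). Its fall in WT was not called with library totals (−0.06, adjusted p = 0.695), DESeq2 (adjusted p = 0.0121) or DESeq2's size factors in edgeR (adjusted p = 0.0126). The gene trnF(gaa) had 163 and 190.5 CPM in pac1-ts at 37 °C and 108 in WT at 37 °C, and 108 and 107 in pac1-ts at 30 °C and 137 in WT at 30 °C, with an interaction of 1.06 ± 0.17 (adjusted p = 0.00651). In all 3 genes the pac1-ts libraries at 37 °C were above the other 4, and the WT library at 30 °C was above those of pac1-ts at 30 °C.

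The largest shifts within pac1-ts were those of trnI(cau), trnS(gcu) and trnL(uag). The first had 174 and 172 CPM at 37 °C, against 76.7 and 69.0 at 30 °C, a rise of 1.25 ± 0.09 on the log2 scale (adjusted p = 8.63e-07, edgeR). The gene trnS(gcu) had 232 and 259 CPM at 37 °C, against 107 and 118 at 30 °C, a rise of 1.12 ± 0.09 (adjusted p = 1.9e-06), and its WT libraries had 169.5 CPM at 37 °C and 119.7 at 30 °C (0.50 ± 0.13, adjusted p = 0.0101, not past the threshold). The gene trnL(uag) had 78.8 and 75.2 CPM at 37 °C, against 35.5 and 35.5 at 30 °C, a rise of 1.12 ± 0.07 (adjusted p = 2.91e-07). These groups did not overlap. The initiator and elongator methionine tRNAs share the anticodon CAU with trnI(cau), and the elongator gene trnM(cau)e had 235 and 259 CPM in pac1-ts at 37 °C and 141 in WT at 37 °C, and 164 and 158 in pac1-ts at 30 °C and 124 in WT at 30 °C. It rose with the shift in pac1-ts by 0.62, while its interaction of 0.44 ± 0.15 did not pass (adjusted p = 0.192).

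**Figure D4:**
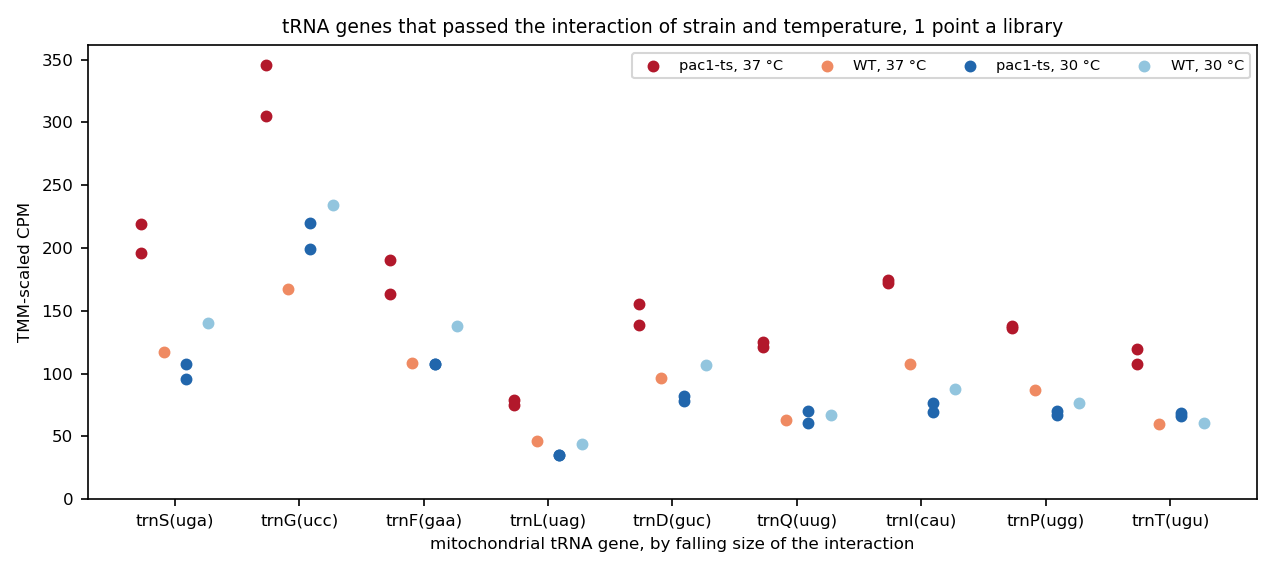
TMM-scaled CPM of the 9 mitochondrial tRNA genes that passed the interaction of strain and temperature, 1 point a library, for pac1-ts and WT at 37 °C and at 30 °C, in order of falling interaction from 1.29 for trnS(uga) to 0.77 for trnT(ugu). In each gene the 2 pac1-ts libraries at 37 °C are above the other 4 libraries.

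The tRNA genes lie in 7 groups between the protein-coding genes, and the interaction was set beside this order as a description. The 4 genes before cox1 had a median interaction of 0.68, the 2 between cox3 and cob 0.57, the 3 between atp6 and rps3 0.82, the 1 between rps3 and atp8 0.67 and the 6 between atp8 and atp9 0.82. Between cob and atp6, 7 tRNA genes lie head to tail in MT 14081 to 14669, of which 4 passed the interaction, with a median of 1.04 and a range of 0.54 to 1.12, while atp6 itself, the next gene, had −0.24 ± 0.16. Between atp9 and cox2 lie trnA(ugc) and trnE(uuc), whose interactions of 0.21 and 0.04 were the smallest of the tRNA genes, followed by trnR(ucu) with 0.37. The last 3 were chosen after their values were seen. Over the 25 genes the interaction had a Spearman correlation of 0.36 with GC content, −0.12 with length, 0.13 with mean level and 0.10 with position, given as a description over genes of the same 6 libraries. The RefSeq sequences of the tRNA genes with the 3 largest and the 3 smallest interactions are printed to show both ends of that range. They are from ASM294v3, + strand of MT, with the anticodon in capitals.
trnS(uga), MT 17637 to 17718: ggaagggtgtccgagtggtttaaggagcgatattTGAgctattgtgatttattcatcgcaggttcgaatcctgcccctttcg
trnG(ucc), MT 14316 to 14387: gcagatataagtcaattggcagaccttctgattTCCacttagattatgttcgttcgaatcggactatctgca
trnF(gaa), MT 14161 to 14232: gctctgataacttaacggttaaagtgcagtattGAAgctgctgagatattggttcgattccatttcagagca
trnR(ucu), MT 9819 to 9890: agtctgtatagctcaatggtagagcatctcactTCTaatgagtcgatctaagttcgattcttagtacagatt
trnA(ugc), MT 18059 to 18131: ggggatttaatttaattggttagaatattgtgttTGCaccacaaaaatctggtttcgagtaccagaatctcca
trnE(uuc), MT 18406 to 18478: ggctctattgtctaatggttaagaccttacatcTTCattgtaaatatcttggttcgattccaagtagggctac

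These 6 sequences held 47.6% GC in trnS(uga), 40.3% in trnG(ucc) and trnF(gaa), 37.5% in trnR(ucu), 35.6% in trnA(ugc) and 38.4% in trnE(uuc), and over all 25 tRNA genes the GC content ran from 27.5% to 47.9% with a median of 38.4%. Their lengths ran from 69 to 86 bases, and none of the tRNA genes shared a word of 36 bases, the shortest read kept, with the nuclear genome or elsewhere on MT. The intron reading frames cox1-I2b and cob-I1 and the gene cox2 shared 142, 4 and 21 words with the nuclear genome. The words of cox1 and cob were taken over their introns as well. Their 142 and 4 shared words are those of cox1-I2b and cob-I1, which lie in introns, and not of the exons that were counted. The nuclear tRNA genes, many of which are near-identical copies, are given beside the mitochondrial tRNA genes. All 171 nuclear tRNA genes together held 6126 to 13217 counts a pac1-ts experiment library, against 30086 to 63815 for the 25 mitochondrial tRNA genes. They thus had fewer counts a gene, and the part of this depth in the number of calls was not tested. Of 137 nuclear tRNA genes tested, 0 passed the interaction, with a median of −0.03, and 1 was higher and 0 were lower after the shift in pac1-ts, with a median of 0.22. For pac1-ts against WT at 37 °C 2 were higher and 0 were lower, with a median of 0.50, and at 30 °C 0 passed, with a median of 0.53.

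In the anchor-away experiment no member passed the test of Pac1-AA against CTL. The edgeR test on the 4 libraries covered 6328 genes and 35 members, since trnN(guu), with 2 to 20 counts a library, was below the filter on low counts. Of the 35, 0 were higher and 0 were lower, beside 4.55% of all genes that were higher and 7.46% that were lower. At an unadjusted p below 0.05 there was 1 member, and DESeq2 called 0. The median log2 fold change was 0.02 over the members, beside 0.00 over all genes. The count rested on both CTL libraries. Without the first CTL library 5 members passed as higher (cob-I1, rps3, cox1-I1b, cox1-I2b and trnE(uuc)), without the second 4 passed as lower (cob-I1, cox1, cox1-I1b and cox1-I2b), and without the first Pac1-AA library rps3 passed as higher, so that cob-I1, cox1-I1b and cox1-I2b turned direction with the CTL library left out.

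Respiratory chain genes overlapped between the strains. The gene cox1 had 6204 and 6578 CPM in Pac1-AA, against 6944 and 6283 in CTL (log2 fold change −0.05 ± 0.05, SE, adjusted p = 0.532, edgeR). The gene cox2 had 5166 and 5530.4 CPM in Pac1-AA, against 5699 and 5241 in CTL (−0.03 ± 0.05). The gene cox3 had 3718 and 4089 CPM in Pac1-AA, against 4077 and 3793 in CTL (−0.01 ± 0.05), and cob had 2761 and 3059 CPM in Pac1-AA, against 3002 and 2728 in CTL (0.02 ± 0.06). In each of these 4 genes the groups overlapped. Among ATP synthase genes atp9 had 3344 and 3471 CPM in Pac1-AA, against 3687 and 3501 in CTL, groups that did not overlap and did not pass (−0.08 ± 0.04, adjusted p = 0.199). The gene atp6 had 791 and 1119.7 CPM in Pac1-AA, against 1033 and 886 in CTL (−0.01 ± 0.13). At a low level, atp8 had 1.90 and 2.04 CPM in Pac1-AA, against 1.46 and 1.74 in CTL (0.27 ± 0.18, adjusted p = 0.309), which also did not overlap. The ribosomal protein gene rps3 had 171 and 250.4 CPM in Pac1-AA, against 210.1 and 185 in CTL (0.10 ± 0.14).

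The intron reading frames likewise overlapped, with 5002 and 5376 CPM for cob-I1 in Pac1-AA, against 5835 and 4787 in CTL (−0.03 ± 0.08). For cox1-I1b there were 285 and 305 CPM in Pac1-AA, against 336 and 263 in CTL, and for cox1-I2b 177 and 198 CPM in Pac1-AA, against 216 and 171 in CTL. In these 3 the CTL libraries lay further apart than the Pac1-AA libraries and on both sides of them. The tRNA genes summed to 237 and 264 CPM in Pac1-AA, against 267 and 231 in CTL. The 3 with the highest counts were trnL(uag), with 38.02 and 42.3 CPM in Pac1-AA, against 42.1 and 38.4 in CTL, trnE(uuc), with 32.1 and 41.3 CPM in Pac1-AA, against 37.4 and 30.9 in CTL, and trnY(gua), with 29.2 and 32.0 CPM in Pac1-AA, against 34.8 and 30.5 in CTL. All 3 overlapped. The mitochondrial rRNAs took 0.115% ± 0.013 of counts in Pac1-AA and 0.243% ± 0.160 in CTL (SD, n = 2 each).

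The exonuclease libraries held so few mitochondrial counts that each group's single library could be compared for 10 members at most. Genes with at least 10 counts in 1 of the 2 libraries compared were described by the ratio of their TMM-scaled counts to WT. With 1 library a group there was no test, the ratios compare libraries and not conditions, and the intervals given are 95% intervals for counting error only. In the library labelled Pnmt81-dhp1, 8 of the 10 members were more than 2-fold higher than in WT and 0 were lower, beside 17% of all genes that were higher and 11% that were lower. The median log2 ratio was 1.55 over the members, beside 0.04 over all genes. In the library labelled Pnmt81-dis3, 3 of 10 were higher and 0 were lower, beside 24.9% and 19.9% of all genes, with a median of 0.72, and a limit of 1.5-fold gave 6. In the library labelled Pnmt81-dhp1 Pnmt81-dis3, 3 of 10 were higher and 0 were lower, beside 25.8% and 19.2% of all genes, with a median of 0.39. In each library 1 of the counted members had passed the filter only through the library where it was high, rps3 in the library labelled Pnmt81-dhp1, atp8 in that labelled Pnmt81-dis3 and trnI(gau) in that labelled Pnmt81-dhp1 Pnmt81-dis3, so the filter had fixed its direction. With at least 50 counts asked for in 1 of the 2 libraries, 2 of 6 were higher in the library labelled Pnmt81-dhp1 Pnmt81-dis3, 2 of 6 in that labelled Pnmt81-dis3 and 7 of 8 in that labelled Pnmt81-dhp1. This stricter filter has the same limit. In all 3 libraries cox1 and cox1-I2b passed it only through the library where they were high. So did cob and atp6 in the library labelled Pnmt81-dhp1, and these counts are no check of the direction.

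The cob exons had 608 counts in the library labelled Pnmt81-dhp1, against 31 in WT, which is 13.99-fold higher (9.88 to 21.0). The libraries labelled Pnmt81-dhp1 Pnmt81-dis3 and Pnmt81-dis3 had 47 and 40 counts of cob, 1.32-fold and 0.967-fold the WT level. The high value of cob was thus in 1 of the 4 libraries. Its intron reading frame cob-I1 had 205 counts in the library labelled Pnmt81-dhp1 Pnmt81-dis3, 348 in that labelled Pnmt81-dis3 and 690 in that labelled Pnmt81-dhp1, against 162 in WT, and in the last library labelled for depletion it was 3.07-fold higher (2.59 to 3.67). The ratio of cob-I1 to cob per base was 2.09 in the library labelled Pnmt81-dhp1 Pnmt81-dis3, 4.18 in that labelled Pnmt81-dis3 and 0.545 in that labelled Pnmt81-dhp1, against 2.51 in WT.

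The 2 cox1 intron reading frames were past 2-fold in all 3 libraries labelled for depletion. The counts of cox1-I1b were 210 in the library labelled Pnmt81-dhp1 Pnmt81-dis3 (3.26-fold, 2.43 to 4.48), 334 in that labelled Pnmt81-dis3 (4.44-fold, 3.36 to 6.04) and 272 in that labelled Pnmt81-dhp1 (3.49-fold, 2.62 to 4.77), against 56 in WT. Those of cox1-I2b were 86 in the library labelled Pnmt81-dhp1 Pnmt81-dis3 (2.19-fold, 1.47 to 3.39), 207 in that labelled Pnmt81-dis3 (4.52-fold, 3.16 to 6.76) and 99 in that labelled Pnmt81-dhp1 (2.09-fold, 1.41 to 3.20), against 34 in WT. The 3 ratios share the WT library, whose 56 and 34 counts enter all of them. The cox1 exons had 87 counts in the library labelled Pnmt81-dhp1 Pnmt81-dis3 (1.61-fold, 1.12 to 2.36), 123 in that labelled Pnmt81-dis3 (1.95-fold, 1.39 to 2.80) and 182 in that labelled Pnmt81-dhp1 (2.78-fold, 2.02 to 3.94), against 47 in WT.

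Of the other protein-coding members, cox2 had 148 counts in the library labelled Pnmt81-dhp1 Pnmt81-dis3 (0.904-fold), 321 in that labelled Pnmt81-dis3 (1.68-fold) and 442 in that labelled Pnmt81-dhp1 (2.23-fold, 1.85 to 2.72), against 143 in WT. The gene atp6 had 14 counts in the dhp1-dis3-labelled library, 10 in the dis3-labelled and 51 in the dhp1-labelled, against 10 in WT, and of these the dhp1-labelled library was past 2-fold (3.58-fold, 1.85 to 8.14). The gene rps3 had 6 counts in the dhp1-dis3-labelled library, 6 in the dis3-labelled and 21 in the dhp1-labelled, against 3 in WT, and was 4.56-fold higher in the library labelled Pnmt81-dhp1 with a wide interval (1.51 to 26.5). The genes cox3 and atp9 stayed within 2-fold in all 3. The counts of cox3 were 140 in the dhp1-dis3-labelled library, 147 in the dis3-labelled and 141 in the dhp1-labelled, against 94 in WT. Those of atp9 were 24 in the dhp1-dis3-labelled library, 21 in the dis3-labelled and 32 in the dhp1-labelled, against 19 in WT. The gene atp8 had 9 counts in the dhp1-dis3-labelled library, 13 in the dis3-labelled and 3 in the dhp1-labelled, against 0 in WT. With WT set at a floor of 3 counts it was 3.24-fold higher in the library labelled Pnmt81-dis3, a value that leaves out the counting error of the 13 counts. The lower end of the 95% counting interval was 2.28-fold.

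The tRNA members had 66 counts in the library labelled Pnmt81-dhp1 Pnmt81-dis3, 8 in that labelled Pnmt81-dis3 and 5 in that labelled Pnmt81-dhp1, against 4 in WT. The only one past the filter was trnI(gau), with 15 counts in the library labelled Pnmt81-dhp1 Pnmt81-dis3 and 0 in the other 3. It passed only through the library where it was high, so the filter had fixed its direction. With WT set at a floor of 3 counts it was 4.37-fold higher than WT, a value that leaves out the counting error of the 15 counts. The lower end of the 95% counting interval was 3.13-fold. The next, trnA(ugc), had 9 counts in that library, 4 in the library labelled Pnmt81-dis3 and 1 in that labelled Pnmt81-dhp1, against 0 in WT, and trnM(cau)e had 8 in the first and 0 in the others. Of the 36 members, 13 were at 0 counts in the dhp1-dis3-labelled library, 22 in the dis3-labelled and 21 in the dhp1-labelled, against 23 in WT, and a count of 0 allows up to 0.357 CPM, 0.317 CPM and 0.408 CPM in those 3 libraries, against 0.439 CPM in WT. Nuclear tRNA genes moved beside them, with 3411 counts in the library labelled Pnmt81-dhp1 Pnmt81-dis3, 1717 in that labelled Pnmt81-dis3 and 113 in that labelled Pnmt81-dhp1, against 43 in WT, and their part in the members' counts was not tested. The mitochondrial rRNAs, in contrast to the members, were plentiful, at 40.9 counts for each member count in the dhp1-dis3-labelled library, 36.2 in the dis3-labelled and 14.6 in the dhp1-labelled, against 44.3 in WT.

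**Figure D5:**
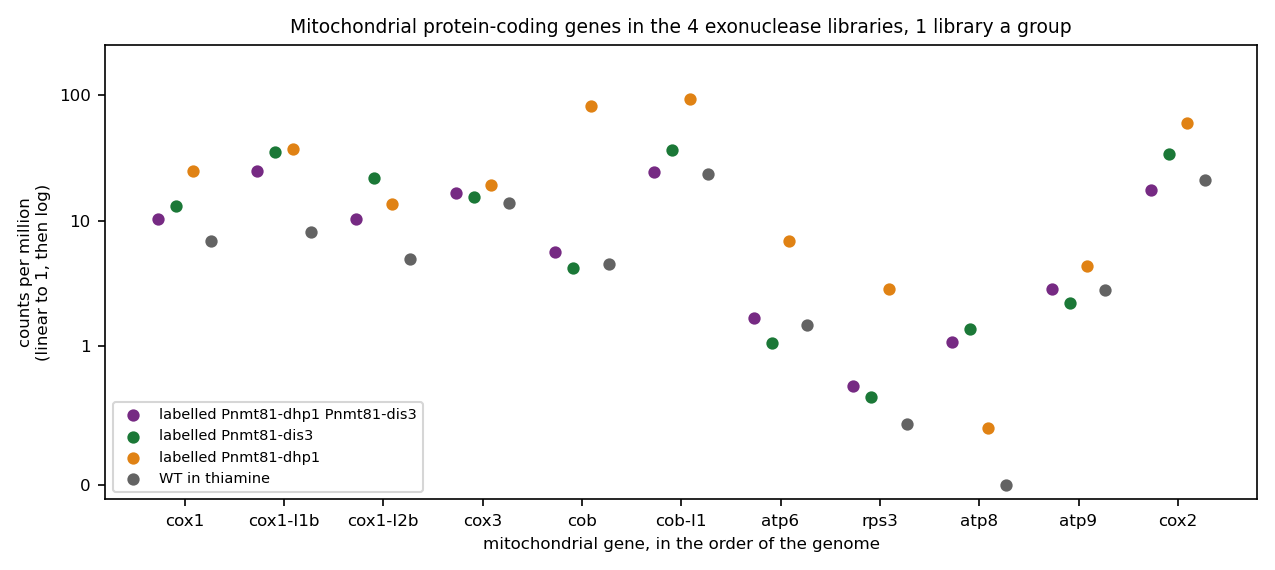
CPM, relative to the library total, for the 11 mitochondrial protein-coding genes in the 4 exonuclease libraries, in the order of the genome, on an axis that is linear up to 1 and logarithmic above it, with 1 library a group. The cob exons reach 608 counts in the library labelled Pnmt81-dhp1 and 31 to 47 counts in the other 3, and atp8 is at 0 in WT.

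Nuclear genes were described as 3 lists, picked by symbol for products that work with the members. The list for the mitochondrial ribosome includes mrp1 (SPNCRNA.82), whose identifier is that of a noncoding RNA. Not all genes of that list therefore encode ribosomal proteins, and its counts and medians are those of the list as picked. In pac1-ts at 37 °C against 30 °C, 0 of 36 nuclear genes for oxidative phosphorylation subunits were higher and 27 were lower, with a median log2 fold change of −0.66, beside 0.02 over all genes and 0.69 over the members. The list for the mitochondrial ribosome, of which 59 genes were tested, had 2 higher and 23 lower with a median of −0.30. The 19 genes for mitochondrial transcription and RNA maturation had 2 higher and 7 lower with a median of −0.19, while 21.4% of all genes were higher and 25.4% were lower. The 2 largest changes that passed in each list were those of cyc1, cytochrome c (−1.26 ± 0.08, SE), atp1, the alpha subunit of the ATP synthase (−1.14 ± 0.09), rsm23 (−0.98) and mrpl19 (−0.86), both mitochondrial ribosomal proteins, and mss116, an RNA helicase (−1.02), and mss1, for tRNA modification (0.73). In WT the same lists had 0 higher and 22 lower, 0 and 8, and 1 and 5, with medians of −0.62, −0.33 and −0.12, while 12.8% of all genes were higher and 18.1% were lower. The 2 largest changes of each list were there those of atp2 (−1.16 ± 0.14), cyc1 (−1.16 ± 0.12), rsm23 (−1.02), mrpl12 (−0.81), mss116 (−0.96) and mss1 (0.75). In the interaction 0 genes of the 3 lists passed. The polymerase gene rpo41 did not pass in any comparison, and its partner mtf1 was lower only in the shift of pac1-ts (−0.56 ± 0.09, adjusted p = 0.000286, edgeR).

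Between the strains few genes of the lists passed. For pac1-ts against WT at 37 °C, 0 genes of oxidative phosphorylation were higher and 3 were lower, among them cox7 (−0.74) and atp20 (−0.58), 1 ribosomal protein gene, rsm23, was lower, and 0 of the third list passed. At 30 °C 1 gene of each list was lower, cyt1 (−0.52), rsm23 (−0.50) and mpa1 (−0.42), and 0 were higher. For Pac1-AA against CTL, 2 genes of the third list were higher and 1 was lower, with the largest values at ppr6 (0.19) and trz2, the mitochondrial RNase Z (−0.19), and 0 of the other 2 lists passed. In the exonuclease libraries the counts past 2-fold for oxidative phosphorylation were 1 higher and 21 lower in the library labelled Pnmt81-dhp1 Pnmt81-dis3, 1 and 25 in that labelled Pnmt81-dis3 and 2 and 3 in that labelled Pnmt81-dhp1, with median log2 ratios of −1.19, −1.42 and 0.08. Of all genes 25.8% were higher and 19.2% lower in the dhp1-dis3-labelled library, 24.9% and 19.9% in the dis3-labelled and 17% and 11% in the dhp1-labelled. For the list of the mitochondrial ribosome the counts were 3 higher and 10 lower in the dhp1-dis3-labelled library, 2 and 17 in the dis3-labelled and 5 and 3 in the dhp1-labelled, with medians of −0.33, −0.57 and 0.00. For transcription and RNA maturation they were 5 higher and 2 lower in the dhp1-dis3-labelled library, 4 and 1 in the dis3-labelled and 3 and 1 in the dhp1-labelled, with medians of 0.33, 0.38 and 0.45.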

How the data were processed

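The authors trimmed paired reads of 2 × 50 bases with Trimmomatic, aligned them with HISAT2 to ASM294v2 and deposited a table of raw counts per gene from featureCounts, which counted read pairs by strand and left out chimeric pairs. Versions of these tools are not given in the sources used here. Per the labels, DESeq2 and deepTools were also used. All 14 count columns were matched to samples by their names, and 0 columns of values were left unmatched. Gene names of the members came from their positions, matched to RefSeq ASM294v3, which held all 36.

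Counts were tested with edgeR 4.0.16 in R 4.3.3 (filterByExpr with a minimum count of 10, TMM factors, glmQLFit and glmQLFTest), separately for the anchor-away and the pac1-ts libraries, with an adjusted p below 0.01 as the threshold. The study's further limit on the log2 fold change, above 1, was an alternative. The exonuclease libraries had 1 sample a group and were described by ratios of TMM-scaled counts plus 0.5. Tables and figures were made with Python 3.11.15, scipy 1.17.1 and matplotlib 3.10.9. The biological coefficient of variation was 0.0299 in the anchor-away and 0.0786 in the pac1-ts libraries. The test was also tried on simulated data with known changes, drawn with the means and dispersions of these data. For Pac1-AA against CTL edgeR called 62 of 67 genes changed by 0.5 on the log2 scale and 62 of 65 changed by 1. For pac1-ts against WT at 30 °C it called 16 of 73 changed by 0.5 and 62 of 66 changed by 1, so most small changes were missed there.

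Members and lists were chosen with earlier results of these data known. All members that are not tRNA genes were named, with the 3 tRNA genes of largest rise or fall among those that passed in a comparison and the 3 of highest mean count in an experiment, and of the nuclear genes rpo41, mtf1 and the label checks. In each list of nuclear genes, at most the 2 largest changes that passed were named. The clones FBY2604 and FBY2605 are the same strains at both temperatures, and their libraries deviated together from the group means (r = 0.52 over all genes, 0.26 over the members), so they were treated as pairs in an alternative with a replicate block. The other alternatives were DESeq2 1.42.0, its size factors or library totals in edgeR, other thresholds, other filters on low counts, and each library left out in turn. WT libraries of the pac1-ts experiment and single exonuclease libraries could not be left out.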

Additional observations from a re-analysis of the deposited data

Results flagged for a closer look

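The 9 tRNA genes that passed the interaction differed between pac1-ts and WT in their shift to 37 °C, by a test of the difference itself. On the log2 scale the shift in pac1-ts minus the shift in WT was 1.29 for trnS(uga), 1.12 for trnG(ucc), 1.06 for trnF(gaa), 1.05 for trnL(uag), 1.04 for trnD(guc), 1.00 for trnQ(uug), 0.96 for trnI(cau), 0.80 for trnP(ugg) and 0.77 for trnT(ugu), with adjusted p-values of 0.00169 to 0.00935 (edgeR). Of the genes that the text does not name elsewhere, trnD(guc) had 139 and 156 TMM-scaled CPM in pac1-ts at 37 °C and 96.1 in WT at 37 °C, and 78.0 and 81.8 in pac1-ts at 30 °C and 107 in WT at 30 °C. The gene trnP(ugg) had 137 and 136 in pac1-ts at 37 °C and 87.2 in WT at 37 °C, and 70.0 and 66.8 in pac1-ts at 30 °C and 76.2 in WT at 30 °C. WT had 1 library at each temperature.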

How the results depend on the processing

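Under other settings, the counts of members past the threshold changed as follows. For pac1-ts against WT at 30 °C, 1 member became 10 at an adjusted p below 0.05, 4 with DESeq2, 0 with DESeq2's size factors in edgeR, 4 with library totals, 2 with a mean of at least 50 counts, 14 with the replicate block and 1 to 11 with 1 library left out. For the interaction, 9 became 5 with DESeq2's size factors, 3 with library totals, 2 with a mean of at least 50 counts, 20 with the replicate block and 13 to 20 with 1 library left out. For the WT shift, 5 became 10 at an adjusted p below 0.05, 19 with library totals, 13 with the replicate block and 7 to 12 with 1 library left out. When a log2 fold change above 1 was also asked for, 0 were left at 30 °C, 0 of 28 at 37 °C, 0 in the WT shift and 4 of 32 in the pac1-ts shift. With 1 library left out, the counts were 26 to 30 for pac1-ts against WT at 37 °C, 30 to 33 for the pac1-ts shift and 0 to 5 for Pac1-AA against CTL. A limit of 1.5-fold gave 6 members in place of 3 in the library labelled Pnmt81-dis3. With rRNA genes left out of the denominator, the share of counts was 5.78% in pac1-ts at 37 °C, 3.71% in WT at 37 °C, 3.45% in pac1-ts at 30 °C and 2.53% in WT at 30 °C. Leaving rRNA genes out of the test, chosen after seeing the data, gave 28 members at 37 °C and 9 in the interaction. The same setting gave 7 in place of 5 in the WT shift. The cause of these changes was not tested.

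Of 364 values of the 28 named calls under other settings, 325 kept their call, 39 kept their direction but not their call, and 0 turned. Of the 39, 22 came from the log2 limit and 6 from leaving out FBY2604 at 30 °C. The tally includes outcomes that were fixed in advance. An adjusted p below 0.05 was asked of the main fit, so its 28 values could only keep their call. That setting and the log2 limit reuse the fold changes of the main fit, so none of their values could turn. The replicate block changed no call in the tally. Pac1-AA and CTL libraries share only a number (r = 0.027), and a block on it gave 0 members. WT had 1 library a temperature and the exonuclease libraries held 603 to 2546 member counts, which limits the precision of their values.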
